A study of Rattus norvegicus with 9 samples.

Results

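Rat pancreatic stellate cells that had been kept for 72 hours on a matrix coating, Matrigel or collagen I, were compared with the same kind of cells on bare plastic, and the response shared by both coatings was described. All 9 arrays of the series took part: 5 from coated dishes (2 on Matrigel, 3 on collagen I) and 4 from plastic dishes, grouped by their surface label. The coated group was the mean of the Matrigel mean and the collagen mean, so that each coating had equal weight. Total RNA was read on Affymetrix Rat Gene 1.0 ST arrays, and values are log2 expression, so a difference of 1 is a 2-fold change.

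The cells of all 3 groups came from male Sprague Dawley rats, with no genetic change stated, and were isolated on a Nycodenz density gradient. They were seeded in 10 cm Petri dishes, with the same cell number in each, in Iscove's medium with 10% foetal bovine serum, so that the groups shared serum, density and time and differed by the surface. Matrigel is a gel of basement membrane proteins, mainly laminin and collagen IV, made by a mouse tumour. Collagen I is the fibrillar collagen of scar tissue. Ages, passage numbers and the way each coating was laid down (thin film or gel) are not given in the labels, nor do they say whether dishes came from separate animals, so p-values measure the spread between these dishes, which may be technical. Sample titles carry 1 of 4 letters (A, P, S or Z) whose meaning is not stated; A occurs on all 3 surfaces, and the other letters on plastic and 1 coating each.

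Pancreatic stellate cells lie around the acini of the exocrine pancreas. In the quiescent state they store retinoids in lipid droplets. On injury, and on stiff culture plastic, they turn into myofibroblast-like cells that contract, secrete collagen and produce cytokines, and they build the scar of chronic pancreatitis and the stroma of pancreatic cancer. Cells sense a surface through integrins and collagen receptors, whose signals reach the actin cytoskeleton and regulators of transcription such as AP-1, SRF and YAP.

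Mesenchymal genes were read on every surface. Vim, the mesenchymal filament vimentin, lay between 12.09 and 12.68 on all 9 arrays and Col1a1, a chain of collagen I, between 12.45 and 12.95. Gfap, a filament used as a stellate cell marker, lay between 2.45 and 2.90, under the 40th percentile of gene levels (4.25) on every surface. Acta2, the smooth muscle actin of activated cells, was 9.43 and 8.95 on Matrigel, 10.13, 11.33 and 10.83 on collagen and 10.08, 10.68, 9.88 and 11.04 on plastic. The averaged difference of Acta2 did not pass the test (-0.44 ± 0.30 (SE), adjusted p = 0.438, limma), and the coatings lay on opposite sides of plastic (-1.23 on Matrigel, 0.34 on collagen).

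Of 14506 genes tested with limma over all 9 arrays (Benjamini-Hochberg adjusted p under 0.05, two-sided), 654 (4.51%) were higher and 808 (5.57%) were lower on coated dishes. Counts for gene lists below are to be read beside these shares. An average can be carried by 1 coating, so a gene was counted in the common response only if it also passed against plastic on Matrigel and on collagen separately, in 1 direction, with all 5 coated arrays on the same side of all 4 plastic arrays. This left 218 genes higher (1.5% of those tested) and 292 lower (2.01%). Counts of common genes in the lists below are to be read beside these shares. Of the other 952 genes called by the average, 591 passed on Matrigel and not on collagen, 237 on collagen and not on Matrigel, 123 on neither, and 1 on both with overlapping arrays. The Matrigel and collagen differences use the same 4 plastic arrays, so a chance deviation of those arrays would shift both.

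Within the common response the median averaged difference was 0.98 for the genes that rose and -0.97 for those that fell. On both coatings alike the smaller of the 2 differences reached 2-fold for 81 genes that rose and 114 that fell. The direct test of Matrigel against collagen called 37 of the 510 common genes (387 of all genes tested, 2.67%), of which 26 had the larger difference on Matrigel and 11 on collagen. For 398 of the 510 the 95% interval of Matrigel minus collagen stayed within 2-fold in either direction. Without the arrays of letter A (1 from each surface, which leaves 1 Matrigel array) the common response held 9 genes higher and 23 lower, without Matrigel replicate 1 alone it held 115 and 192, and without plastic replicate 1 it held 148 and 184. The averaged counts were 390 and 474 without plastic replicate 1, 441 and 508 without Matrigel replicate 1, and 455 and 527 without plastic replicate 4.

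**Figure D1:**
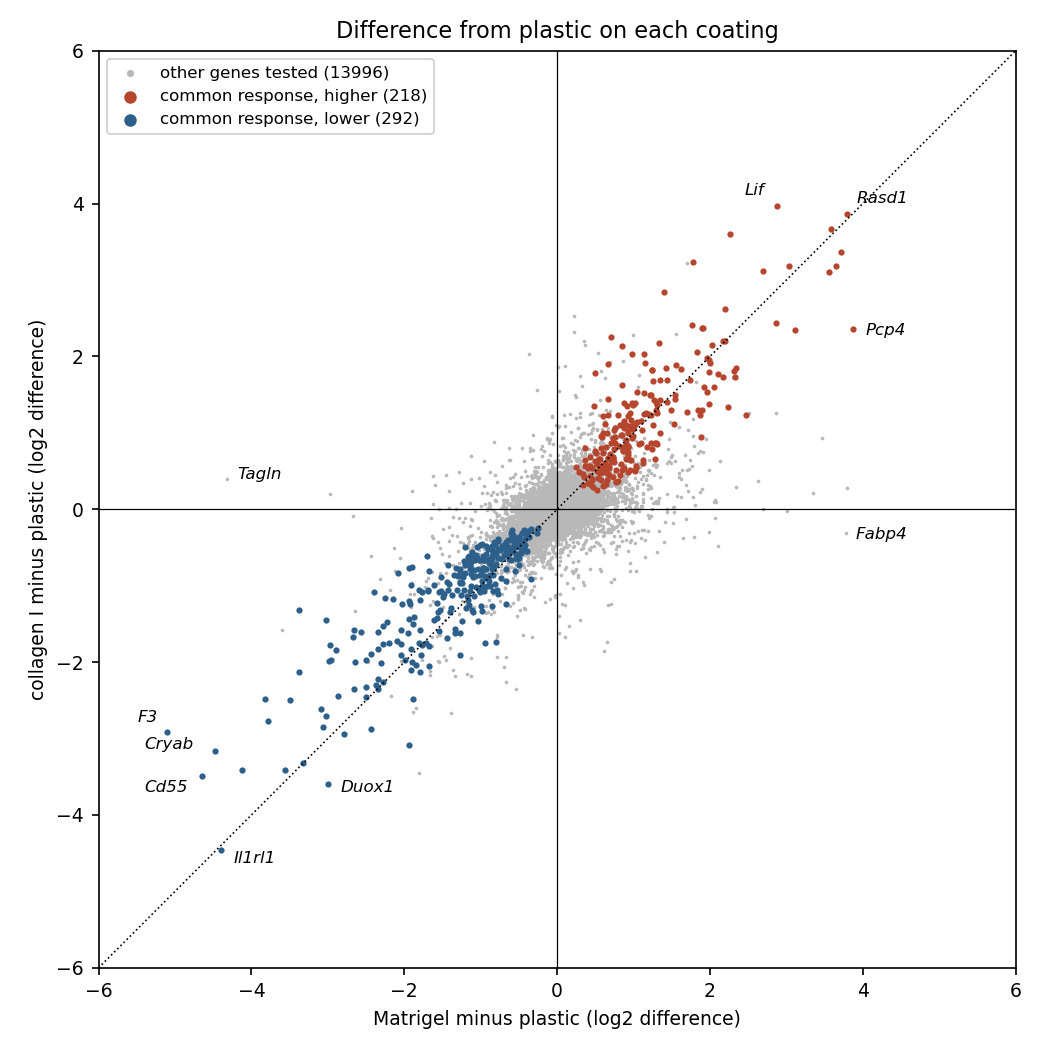
Each point is 1 of 14506 genes; the horizontal axis is Matrigel minus plastic and the vertical axis collagen I minus plastic, both as log2 differences of group means that share the 4 plastic arrays. The 218 common genes that rose lie in the upper right and the 292 that fell in the lower left, while Tagln and Fabp4, called by the average alone, lie far from the dotted line of equal difference.

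Rasd1, a small Ras-like protein induced by glucocorticoids, had the largest smaller difference of all genes that rose. It was 8.71 and 9.06 on Matrigel, 9.20, 9.05 and 8.65 on collagen, and 5.14, 4.65, 5.73 and 4.87 on plastic. All 5 coated arrays lay close together, and the highest plastic array was well below the lowest of them. The difference was 3.79 ± 0.28 (SE) on Matrigel and 3.87 ± 0.25 on collagen, 14.2-fold on average (adjusted p = 6.76e-05, limma).

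Lif, Csf3, Hgf and Spp1, among the other leading genes, encode secreted proteins. Lif, a cytokine of the interleukin 6 family, read 9.15 and 8.68 on Matrigel, 9.84, 10.14 and 10.04 on collagen, and 5.71, 6.16, 6.02 and 6.25 on plastic. It rose on both coatings and more on collagen: Matrigel minus collagen was -1.09 (95% interval -1.52 to -0.66, adjusted p = 0.0259, limma). Csf3, the granulocyte colony-stimulating factor, read 8.47 and 7.50 on Matrigel, 8.54, 7.40 and 6.60 on collagen, and 4.57, 4.06, 4.85 and 3.85 on plastic. Its coated arrays were widely spread but none came near plastic (averaged difference 3.42 ± 0.40 (SE), adjusted p = 0.00131, limma). Hgf, the hepatocyte growth factor that stromal cells send to epithelium, rose by 2.20 on Matrigel and 2.62 on collagen. Spp1, the secreted phosphoprotein osteopontin, rose from 9.67, 8.37, 9.61 and 9.69 on plastic to 12.29 and 12.12 on Matrigel and 11.90, 11.43 and 11.98 on collagen.

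Other leading genes act inside the cell or at its surface. Megf10, an engulfment receptor, rose by 3.56 ± 0.35 (SE) on Matrigel and 3.10 ± 0.31 on collagen. Foxq1, a forkhead transcription factor, rose by 3.03 and 3.18. Zc3h12a, an RNase that degrades inflammatory mRNAs such as that of Il6, rose by 2.19 and 2.20, and its Matrigel minus collagen interval ran from -0.48 to 0.47. Sema7a, a membrane-anchored semaphorin that binds integrins, rose by 2.27 and 3.60. Pcp4, a calmodulin-binding peptide, rose by 3.87 and 2.36, and Serinc2, a membrane protein, by 2.17 and 2.21. Coro1a, an actin-binding protein best known from leukocytes and named here after its values were seen, rose by 1.49 on Matrigel and 1.30 on collagen. The call of Coro1a was lost when Matrigel replicate 1 was left out (adjusted p = 0.0534, limma).

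**Figure D2:**
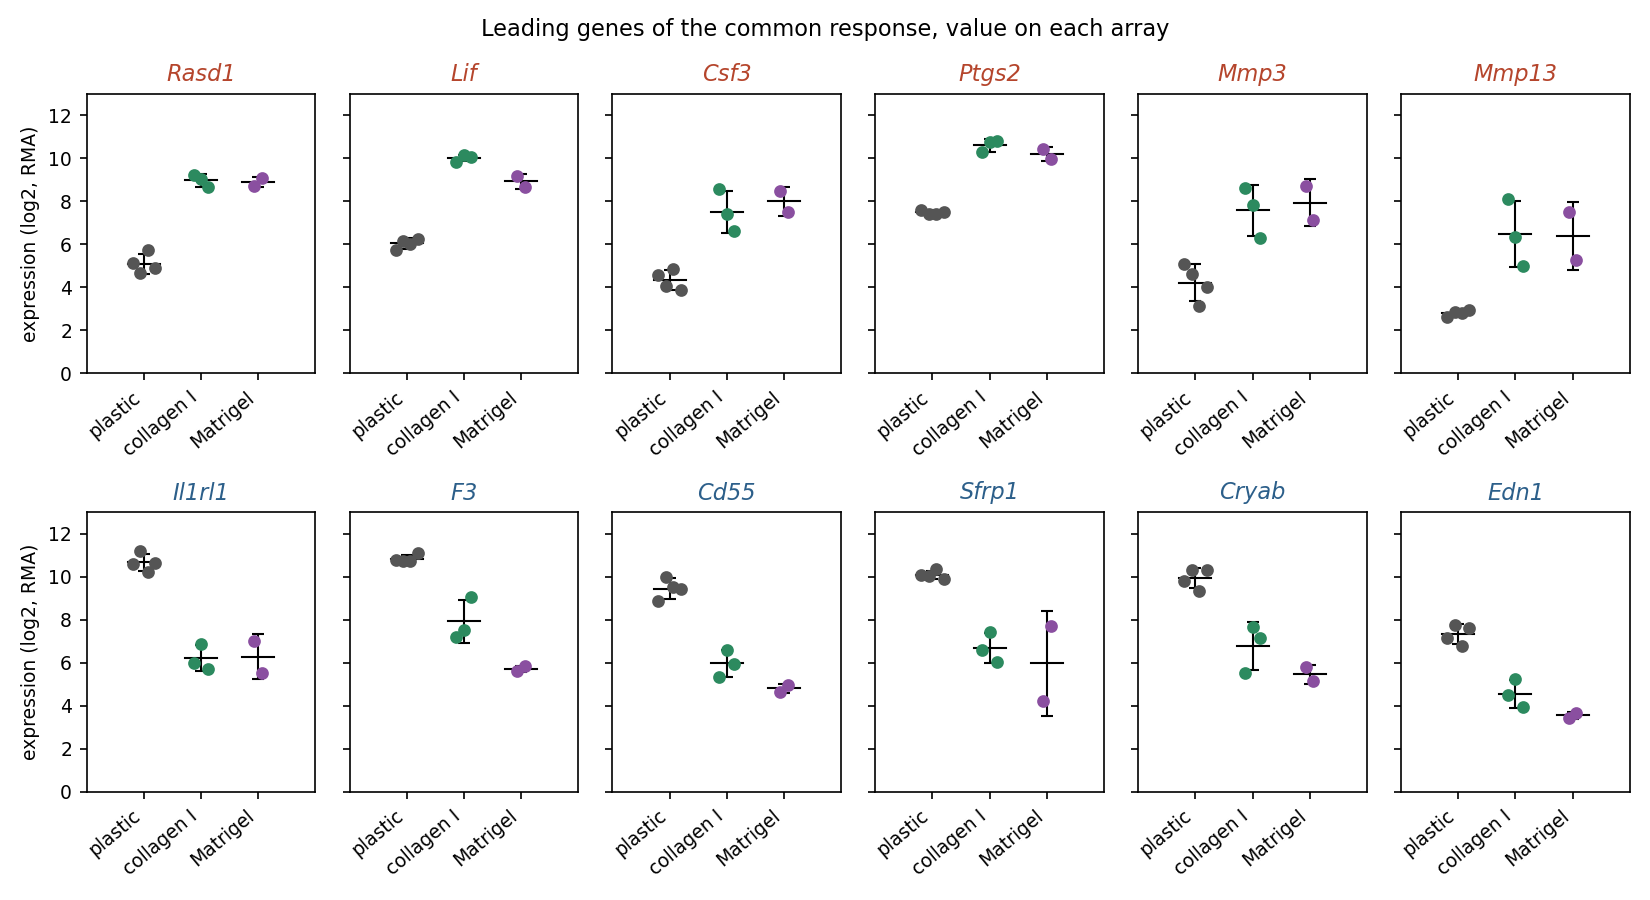
Points are single arrays, the horizontal bar is the mean of a surface and the error bar its SD (n = 4 plastic, 3 collagen I, 2 Matrigel), on the log2 scale, with genes that rose in the upper row and genes that fell in the lower row. In each of the 12 genes all coated arrays lie on 1 side of all plastic arrays, which the rule of the common response requires. Mmp13, Mmp3 and Sfrp1 show a wide spread between coated arrays.

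The leading gene that fell was Il1rl1, the receptor of interleukin 33 (ST2). It was 10.60, 11.20, 10.22 and 10.64 on plastic, 7.01 and 5.53 on Matrigel, and 6.0, 6.88 and 5.72 on collagen. The fall was 4.39 ± 0.45 (SE) on Matrigel and 4.46 ± 0.40 on collagen, 21.5-fold on average (adjusted p = 0.000237, limma). F3, tissue factor, which starts coagulation, was 10.79, 10.74, 10.72 and 11.09 on plastic, 7.19, 7.51 and 9.04 on collagen, and 5.62 and 5.82 on Matrigel. It fell on both coatings and further on Matrigel, with a Matrigel minus collagen difference of -2.19 (95% interval -3.22 to -1.16, adjusted p = 0.0448, limma). Cd55, which protects cells from complement, was 8.85, 10.00, 9.50 and 9.42 on plastic, 5.35, 6.60 and 5.93 on collagen, and 4.65 and 4.95 on Matrigel.

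Sfrp1, a secreted antagonist of Wnt proteins, was 10.09, 10.04, 10.33 and 9.89 on plastic, 6.57, 7.41 and 6.03 on collagen, and 4.23 and 7.69 on Matrigel. Its plastic arrays were tightly grouped, whereas the Matrigel pair lay far apart. Cryab, a small heat shock protein of stellate and muscle cells, was 9.79, 10.30, 9.35 and 10.29 on plastic, 5.52, 7.65 and 7.14 on collagen, and 5.78 and 5.13 on Matrigel. Kcnd3, a voltage-gated potassium channel, fell by 3.55 ± 0.18 (SE) on Matrigel and 3.41 ± 0.16 on collagen, to levels under the 40th percentile. Cyp11b1, a steroid 11-beta-hydroxylase, fell by 3.33 and 3.32, also to such levels; its probes could also read near-identical members of the Cyp11b family. Ccdc80, a secreted matrix-binding protein, had a small spread, with 11.74, 11.52, 11.85 and 11.46 on plastic and 8.41 to 9.12 on the 5 coated arrays (adjusted p = 5.09e-06, limma). Cntn2, a neural adhesion molecule, fell by 3.06 on Matrigel and 2.85 on collagen, and Stc2, a secreted glycoprotein hormone, by 3.82 and 2.49.

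Matrix-degrading enzymes were among the genes that rose. Of all genes tested, 4.51% were higher and 5.57% lower by the average, and 1.5% and 2.01% were common. Of 35 matrix proteases and inhibitors tested, 12 were called higher and 4 lower by the average, and 7 and 2 of these belonged to the common response (median difference over the list 0.27, over all genes tested -0.0009). Mmp13, collagenase 3, was 7.49 and 5.27 on Matrigel, 8.09, 6.31 and 5.0 on collagen, and 2.63, 2.87, 2.79 and 2.92 on plastic. Mmp3, stromelysin 1, was 8.69 and 7.14 on Matrigel, 8.63, 7.81 and 6.29 on collagen, and 5.08, 4.61, 3.11 and 4.01 on plastic. Mmp9, gelatinase B, rose by 3.11 ± 0.53 (SE) on Matrigel and 2.34 ± 0.47 on collagen. The plastic values of Mmp13, and the plastic mean of Mmp3, lay under the 40th percentile of gene levels, where the log2 scale can compress a change. On both coatings the arrays of letter A had the highest Mmp13, Mmp3 and Mmp9 of their surface, and without the letter A arrays the averaged p was 0.0601, 0.0962 and 0.0513 (adjusted, limma). The call of Mmp13 was also lost without the letter P arrays (adjusted p = 0.0621). Without the letter A arrays the calls of 5 other leading genes were lost too: Npr3 (adjusted p = 0.171, limma), Spp1 (0.0756), Edn1 (0.0603), Sfrp1 (0.0598) and Pcp4 (0.0503).

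The 250 bases before the start of Mmp13 and Mmp3 are shown because both hold a 7-letter AP-1 motif at a like distance from the start, and those of Lgals9, a leading gene that fell, because they hold the same motif. Sequences are RefSeq's on build GRCr8, written 5′ to 3′ on the gene's strand, with the motif in capitals: Mmp13 from chr8:12782579-12782828 (plus strand), Mmp3 from chr8:12925031-12925280 (plus strand) and Lgals9 from chr10:64428071-64428320 (minus strand).
Mmp13: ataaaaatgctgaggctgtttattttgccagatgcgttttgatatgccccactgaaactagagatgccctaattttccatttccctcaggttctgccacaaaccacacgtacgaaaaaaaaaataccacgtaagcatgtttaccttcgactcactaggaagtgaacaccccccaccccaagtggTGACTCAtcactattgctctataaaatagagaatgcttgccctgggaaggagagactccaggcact
Mmp3: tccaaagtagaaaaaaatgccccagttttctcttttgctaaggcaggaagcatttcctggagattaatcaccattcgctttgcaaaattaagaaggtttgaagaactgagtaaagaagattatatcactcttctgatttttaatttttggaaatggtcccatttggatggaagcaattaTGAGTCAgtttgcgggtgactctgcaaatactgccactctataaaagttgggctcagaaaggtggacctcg
Lgals9: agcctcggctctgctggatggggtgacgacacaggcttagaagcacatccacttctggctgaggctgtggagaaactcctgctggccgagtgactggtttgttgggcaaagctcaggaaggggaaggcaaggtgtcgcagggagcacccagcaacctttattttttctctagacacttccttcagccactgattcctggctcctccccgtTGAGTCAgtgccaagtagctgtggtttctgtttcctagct
The motif TGACTCA of Mmp13 lies 66 to 60 bases before the start, and TGAGTCA, which is the same motif read from the other strand, lies 71 to 65 bases before the start of Mmp3 and 40 to 34 before that of Lgals9. Lgals9, the lectin galectin 9, fell from 9.47, 9.17, 9.13 and 9.10 on plastic to 5.43 and 6.01 on Matrigel and 7.33, 6.79 and 6.04 on collagen. A dimmer probe set entry of Lgals9 gave a difference of -0.96. Of RefSeq's 27457 promoter windows 3.98% hold this motif on either strand, over the genes tested 3.43% (11950 with a promoter), over common genes that rose 5.33% (9 of 169) and over common genes that fell 4.35% (11 of 253). The motif was thus present on both sides of the response, and the windows say nothing of which factor binds. The other motifs searched were TGACGTCA (the cyclic AMP response element), CATTCC or GGAATG (TEAD) and the serum response element, none of which overlaps the AP-1 letters in these windows; TEAD's was held by 7.1% of common genes that rose and 14.2% of those that fell, against 10.4% of genes tested.

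Mmp13 and Mmp3 belong to a cluster of metalloprotease genes. Of 10 neighbouring protein-coding genes from Mmp13 to Mmp7 in RefSeq order, 9 were tested, and Mmp13 and Mmp3 were the 2 that passed. Mmp12, the macrophage elastase, which lies beside Mmp13, gave 0.95 ± 0.59 (SE) on Matrigel and 1.05 ± 0.52 on collagen (averaged adjusted p = 0.231, limma). Il1rl1 likewise stands in the interleukin 1 receptor cluster, where it was the 1 gene of 5 tested that passed; its neighbour Il1rl2, the receptor of interleukin 36, gave -0.95 ± 0.36 (SE) on Matrigel and 0.07 ± 0.32 on collagen (averaged adjusted p = 0.402, limma). Il1r1, the receptor of interleukin 1, differed by 0.08 ± 0.10 (SE) on Matrigel and 0.03 ± 0.09 on collagen. These loci were looked at after the values were seen.

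**Figure D3:**
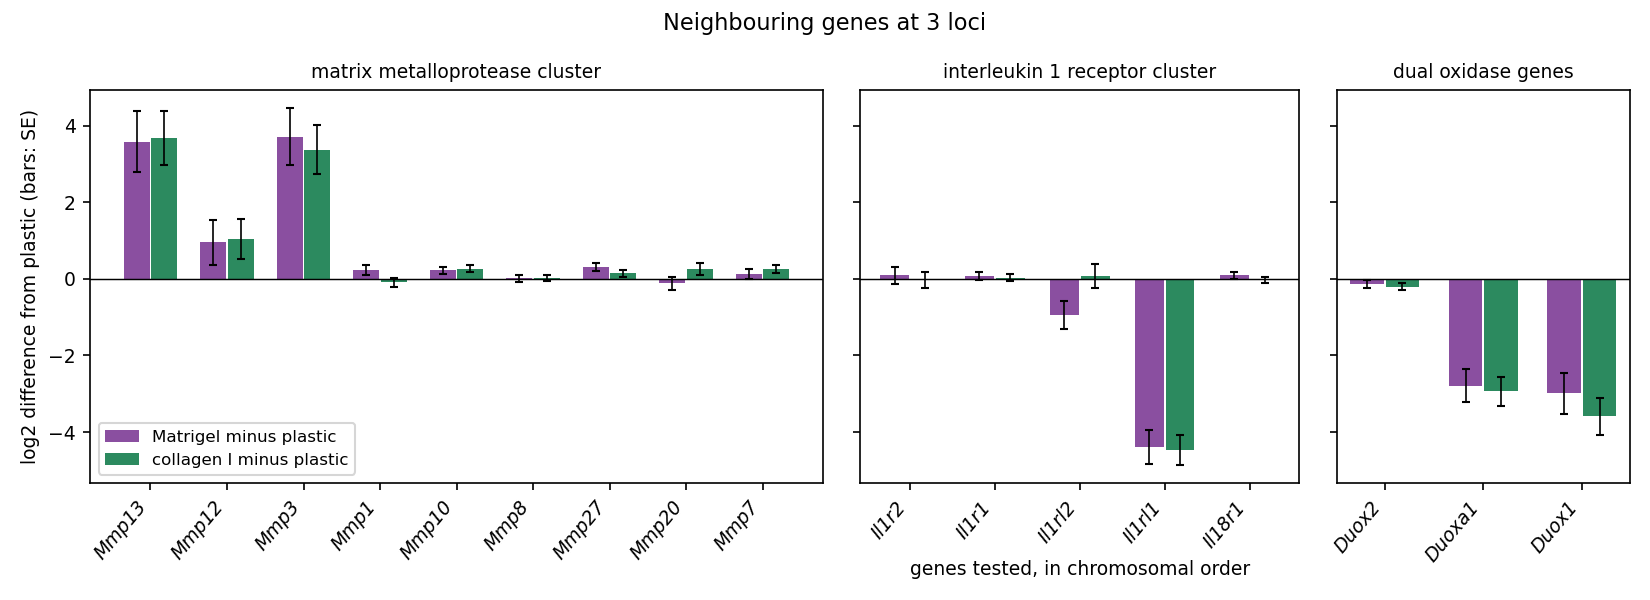
Bars give the log2 difference from plastic on Matrigel and on collagen I with the SE of the fit, for the genes tested in chromosomal order at 3 loci. Mmp13 and Mmp3 passed the test while the bars of Mmp12, about 1, did not, and Il1rl1 is the 1 gene of its cluster that passed. Duoxa1 and Duox1 fell together, while Duox2, already under the 40th percentile of gene levels on plastic, did not pass.

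Duox1, a dual oxidase that makes hydrogen peroxide, and Duoxa1, the factor that brings it to the membrane, are neighbours with opposite strands and fell together. Duox1 was 9.58, 8.87, 9.70 and 9.42 on plastic, 5.28 and 7.52 on Matrigel, and 6.24, 5.84 and 5.32 on collagen. Duoxa1 was 9.33, 8.59, 9.47 and 9.09 on plastic, 5.47 and 7.19 on Matrigel, and 6.48, 6.27 and 5.79 on collagen. The coated arrays stood in the same order for both genes, with Matrigel replicate 1 the lowest and Matrigel replicate 2 the highest. Duox2, the next oxidase of the locus, differed by -0.14 ± 0.11 (SE) on Matrigel and -0.20 ± 0.10 on collagen (averaged adjusted p = 0.29, limma). Its plastic values, 3.26 to 3.65, lay under the 40th percentile of gene levels (4.25). A fall like that of Duox1 could therefore not be read for Duox2. The 2 starts lie 1990 bases apart, and the 250 bases before each are shown because the pair moved together: chr3:129715746-129715995 (plus strand) for Duox1 and chr3:129714007-129714256 (minus strand) for Duoxa1, build GRCr8, in lower case because no motif searched was found.
Duox1: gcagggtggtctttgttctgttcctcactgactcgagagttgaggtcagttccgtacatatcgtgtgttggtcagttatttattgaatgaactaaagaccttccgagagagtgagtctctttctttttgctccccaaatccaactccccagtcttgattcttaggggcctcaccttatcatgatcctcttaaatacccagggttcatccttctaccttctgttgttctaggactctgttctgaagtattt
Duoxa1: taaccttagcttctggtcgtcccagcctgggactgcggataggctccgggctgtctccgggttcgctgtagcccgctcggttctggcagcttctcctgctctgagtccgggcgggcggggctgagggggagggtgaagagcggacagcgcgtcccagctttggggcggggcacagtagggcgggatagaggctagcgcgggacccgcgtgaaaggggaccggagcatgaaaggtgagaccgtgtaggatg
The window of Duoxa1 held 66.4% G and C and that of Duox1 44%, so the paired genes differ in base composition at their starts.

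Other secreted proteases moved in both directions, also within the ADAMTS family. Adamts4, an aggrecan-degrading enzyme, rose by 1.24 ± 0.22 (SE) on Matrigel and 1.82 ± 0.20 on collagen. Adamts12 rose by 0.75 and 1.04, and Adamts7 by 0.98 and 0.93, the latter lost without Matrigel replicate 1 (adjusted p = 0.0674, limma) and without plastic replicates 2 or 4 (0.0505 and 0.0559). Adamts5, the other main aggrecanase, fell instead, from 10.28, 10.22, 9.80 and 9.49 on plastic to 6.54 and 7.61 on Matrigel and 7.74, 7.97 and 6.79 on collagen. Adamts1 fell by 2.09 and 1.73. Serpine2, an inhibitor of thrombin and plasminogen activators, rose by 1.90 and 1.30. Timp1, the main metalloprotease inhibitor of activated stellate cells, gave -0.45 ± 0.16 (SE) and did not pass (adjusted p = 0.119, limma; 0.0152 without Matrigel replicate 2), nor did Mmp2, gelatinase A, at 0.34 ± 0.11 (adjusted p = 0.0904).

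Among 25 proteoglycan and hyaluronan genes tested 4 were higher and 4 lower, with 3 and 2 in the common response. The shares over all genes tested were 4.51% higher and 5.57% lower, with 1.5% and 2.01% common. Has2, which makes hyaluronan, read 7.18 and 7.13 on Matrigel, 7.64, 8.67 and 9.54 on collagen, and 5.49, 5.02, 5.29 and 5.70 on plastic. Its receptor Cd44 rose by 0.75 on Matrigel and 0.94 on collagen, and Vcan, the hyaluronan-binding proteoglycan versican, by 0.60 and 0.49. Ogn, a small leucine-rich proteoglycan, fell by 2.34 and 1.83, and Gpc4, a glypican, by 1.13 and 0.69. Of 26 fibronectin, elastic fibre and matricellular genes 6 were higher and 7 lower, with 3 and 4 in the common response. Beside Spp1, Tgfbi, a TGF-beta-induced adhesion protein, rose by 2.34 ± 0.38 (SE) and 1.86 ± 0.33, and Ltbp2 by 0.80 and 1.23. Ccn3 and Ccn5, members of the CCN family of matricellular proteins, fell by 1.88 and 2.48 and by 1.27 and 0.96, and Mfap5, a microfibril protein, by 1.70 and 0.61, further on Matrigel (adjusted p = 0.0153, limma). Ccn2, the family member raised by TGF-beta, gave -1.13 on Matrigel and 0.69 on collagen and did not pass (adjusted p = 0.812, limma).

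Of 27 fibrillar collagen and collagen processing genes, 2 were higher and 7 lower by the average, where 4.51% and 5.57% of all genes tested were, and P4ha2, a proline hydroxylase of collagen chains, was the 1 member of the common response (-0.90 on Matrigel, -0.70 on collagen). Col1a1 differed by -0.10 ± 0.12 (SE) from plastic (adjusted p = 0.685, limma). Of 12 basement membrane genes none passed (0 higher, 0 lower, limma; median 0.06). Fn1, fibronectin, rose by the average (0.27 ± 0.05 (SE), adjusted p = 0.00846, limma) without meeting the rule of the common response. Of 20 integrin and collagen receptor genes, 4 passed and all 4 belonged to the common response. Itga5, the fibronectin receptor chain, rose by 1.30 and 1.40, and Mrc2, which takes up collagen fragments, by 0.89 and 0.76. Itgb1, the beta chain shared by collagen and laminin receptors, fell by 0.43 and 0.27, and Ddr1, a collagen receptor kinase, fell from 8.38, 8.01, 8.30 and 8.24 on plastic to 6.16 and 6.48 on Matrigel and 6.55, 6.77 and 5.90 on collagen.

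Several inflammatory mediators rose on both coatings. Their counts stand beside 4.51% higher and 5.57% lower over all genes tested, with 1.5% and 2.01% common. Of 20 genes of the interleukin 6 family and its signal path, 5 were higher and 2 lower, with 3 and 2 in the common response (median -0.03). The 3 that rose were ligands: Lif, Il6 and Il11. Il6 read 8.45 and 8.75 on Matrigel, 9.32, 9.46 and 9.33 on collagen, and 7.50, 7.09, 7.93 and 7.30 on plastic. Il11 rose by 0.85 ± 0.17 (SE) on Matrigel and 2.14 ± 0.15 on collagen, a difference between the coatings that passed (adjusted p = 0.0138, limma). The 2 that fell receive the signal: Osmr, a receptor chain, by 0.95 and 0.88, and Stat3, the transcription factor downstream, by 0.42 and 0.47.

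Of 24 chemokines and colony-stimulating factors, 5 were higher and 2 lower, with 4 and 0 in the common response. For all genes tested the shares were 4.51% and 5.57%, with 1.5% and 2.01% common. Beside Csf3, the neutrophil chemokines Cxcl1 and Cxcl2 rose by 1.00 and 1.37 and by 1.34 and 2.18 on Matrigel and collagen. Cxcl16, a membrane-bound chemokine, rose by 1.97 ± 0.21 (SE) and 1.98 ± 0.18, with a Matrigel minus collagen interval of -0.51 to 0.48. Cxcl1 and Cxcl2 are neighbours in a chemokine cluster in which 6 genes were tested; Cxcl3 (0.35 and 0.39), Cxcl6 (0.37 and 0.73) and Pf4 (1.78 and 0.16) did not pass. Pf4 is also made by platelets and macrophages. The macrophage markers had a median difference of 1.0 on Matrigel and -0.28 on collagen. Of 25 such markers 0 passed by the average and 0 passed between the coatings. The part of such cells in the Pf4 values was not tested. Of 21 interleukin 1 and NF-kappaB response genes, 6 were higher and 2 lower, with 4 and 1 in the common response (median 0.27). Nfkbia and Nfkbiz, members of the IkappaB family, rose by 1.22 and 1.5 and by 1.14 and 2.03. Nfkb2, a subunit of NF-kappaB, rose by 0.77 and 0.52, and Il1rn, the interleukin 1 receptor antagonist, by 1.04 and 1.54.

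Of 20 prostaglandin genes tested, 4 were higher, from the first step of synthesis to a receptor, and all 4 belonged to the common response. Another 3 were lower, 1 of them common. Shares over all genes tested were 4.51% higher and 5.57% lower, with 1.5% and 2.01% common. Pla2g4a, the phospholipase that frees arachidonic acid, rose by 1.11 ± 0.12 (SE) on Matrigel and 1.04 ± 0.10 on collagen. Ptgs2, the inducible cyclooxygenase, was 10.41 and 9.94 on Matrigel, 10.26, 10.74 and 10.80 on collagen, and 7.60, 7.40, 7.39 and 7.51 on plastic, 7.51-fold on average (adjusted p = 2.09e-05, limma). Ptges, which makes prostaglandin E2, was 11.26 and 10.73 on Matrigel, 11.35, 11.18 and 11.25 on collagen, and 9.72, 9.73, 9.57 and 10.04 on plastic. Ptger4, a receptor of prostaglandin E2, rose by 1.26 and 1.10. Slco2a1, the transporter that clears prostaglandins, fell by 0.78 and 1.10, at levels under the 40th percentile on every surface.

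Of 40 TGF-beta, activin and BMP genes, 9 were higher and 9 lower, against 4.51% and 5.57% of all genes tested, with 7 and 8 in the common response (median -0.09). The 3 TGF-beta ligands moved in opposite directions. Tgfb1 was 10.33 and 9.60 on Matrigel, 10.19, 10.39 and 11.24 on collagen, and 7.91, 8.39, 7.80 and 8.71 on plastic. Tgfb2 was 5.06 and 5.70 on Matrigel, 4.23, 5.50 and 5.42 on collagen, and 6.56, 7.67, 6.73 and 7.75 on plastic. Tgfb3 was 5.59 and 5.99 on Matrigel, 6.32, 6.28 and 6.82 on collagen, and 7.33, 7.87, 7.96 and 7.68 on plastic. Tgfb1 thus rose 4.24-fold on average while Tgfb2 fell 3.89-fold and Tgfb3 fell 2.99-fold (adjusted p = 0.00235, 0.0103 and 0.000865, limma). None overlapped with plastic, which the rule of the common response requires.

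BMP ligands split in the same way. Bmp2 rose by 1.14 on Matrigel and 1.52 on collagen from plastic values under the 40th percentile. Bmp6 fell by 2.96 ± 0.18 (SE) on Matrigel and 1.78 ± 0.16 on collagen, further on Matrigel (adjusted p = 0.0194 for the difference, limma). Gdf10, a BMP-related ligand, fell by 1.99 and 1.97, and Inhbb, an activin subunit, by 1.52 and 0.88. Of the inhibitors of the 2 pathways that belonged to the common response, 3 rose and 1 fell. Other inhibitors of the list either did not pass or passed by the average without being common. Bambi, a decoy receptor, rose by 0.98 and 2.03, Nog, a BMP trap, by 1.34 and 1.44, and Smad7, the inhibitory Smad, by 1.23 and 1.24, whereas Chrdl1, another BMP trap, fell by 1.12 and 1.32. Of the receptors, Bmpr2 rose by 0.57 and 0.53 and Acvrl1 fell by 0.89 and 0.51. Of the latent TGF-beta binding proteins, Ltbp3 rose by 0.97 and 0.64 and Ltbp1 fell by 1.11 and 0.55.

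**Figure D4:**
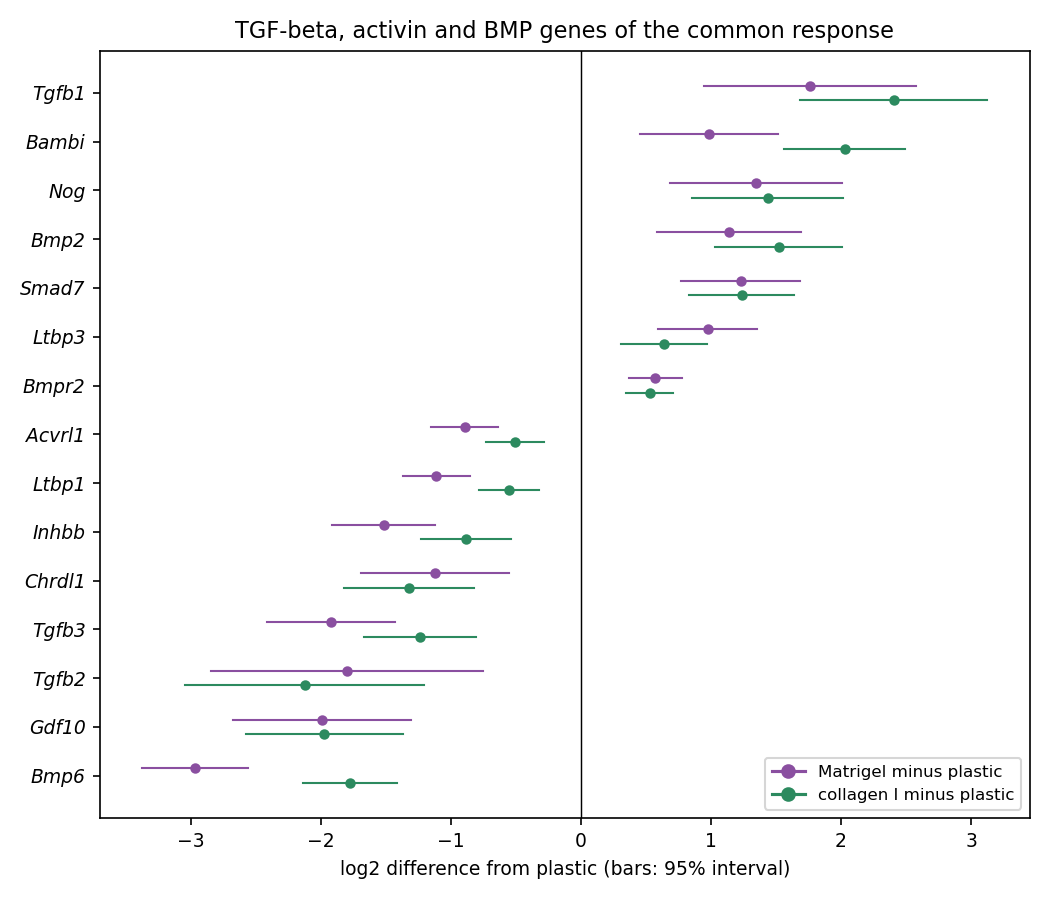
Points are the log2 difference from plastic on Matrigel and on collagen I and bars the 95% interval of the fit, for the 15 common genes of the 40 TGF-beta, activin and BMP genes tested. No bar reaches 0, because the genes drawn were chosen for passing the test on each coating. Tgfb1 has the largest averaged rise and Bmp6 the largest averaged fall, and the 2 coatings' bars overlap for most genes.

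Growth factors and their receptors gave 5 genes higher and 6 lower of 39, against 4.51% and 5.57% of all genes tested. The common response held 4 and 6 of them. Beside Hgf, the epithelial growth factor Fgf7 rose by 0.76 ± 0.09 (SE) and 0.87 ± 0.08, Kitlg, the stem cell factor, by 0.90 and 1.10, and Angptl4, an inhibitor of lipoprotein lipase, by 1.98 and 1.37. Fgf18 was 7.35, 7.51, 7.17 and 7.34 on plastic and 4.56 to 5.59 on the 5 coated arrays. Vegfc and Vegfd, the growth factors of lymphatic vessels, fell by 1.61 and 1.45 and by 1.10 and 1.34. Igfbp3 and Igfbp6, binding proteins of insulin-like growth factors, fell by 2.28 and 1.76 and by 2.68 and 1.67, and Egfr, the epidermal growth factor receptor, by 1.35 and 0.86. Among 28 Wnt genes 3 were higher and 4 lower, with 1 and 3 in the common response: the receptor Fzd1 rose by 0.97 and 1.38, while Fzd4 fell by 1.94 and 3.08, Wnt4 by 2.66 and 2.35, and Sfrp1 as given above.

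Of 34 immediate-early and ERK feedback genes, 14 were higher and 3 lower, against 4.51% and 5.57% of all genes tested. The common response held 7 and 3 of them (median over the list 0.31). Egr1, a transcription factor induced by ERK, was 9.72 and 10.27 on Matrigel, 9.10, 9.65 and 9.62 on collagen, and 8.10, 8.05, 8.35 and 8.13 on plastic. Ier3 rose by 1.44 and 1.70 and Junb, an AP-1 subunit, by 0.58 and 0.81. Jun, another AP-1 subunit, rose by 0.70 ± 0.16 (SE) on Matrigel and 2.26 ± 0.14 on collagen, more on collagen (adjusted p = 0.00818, limma). Fos, its partner, was called by the average but gave 0.22 ± 0.18 (SE) on Matrigel and 2.53 ± 0.16 on collagen, so it is not part of the common response. Dusp6, the ERK phosphatase, rose by 1.24 and 0.79 and Etv4, an ETS factor, by 0.73 and 0.69, the latter lost when Matrigel replicate 1 (adjusted p = 0.0513, limma) or plastic replicate 1 (0.0528) was left out. The Sprouty inhibitors of receptor kinases diverged: Spry4 rose by 1.44 and 1.40, whereas Spry1 fell by 2.35 and 1.60 and Spry2 by 0.66 and 0.47. Klf4, a growth-arrest factor, fell by 2.40 and 1.08.

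Of 24 genes on a list of SRF and YAP/TAZ targets, 0 were higher and 13 lower, against 4.51% and 5.57% of all genes tested. SRF and YAP/TAZ are regulators of transcription that respond to actin tension, and the list also holds Srf itself and Tead1. The common response held 9 of the 13 (median over the list -0.60). Edn1, the vasoconstrictor endothelin 1, was 7.16, 7.76, 6.77 and 7.61 on plastic, 3.45 and 3.65 on Matrigel, and 4.48, 5.23 and 3.95 on collagen. Amotl2, a YAP regulator, was 8.52, 8.66, 8.47 and 8.59 on plastic, 6.83 and 7.23 on Matrigel, and 6.98, 7.30 and 7.46 on collagen. Fhl1 and Fhl2, LIM proteins of the contractile apparatus, fell by 1.89 and 2.0 and by 1.21 and 0.73, Nuak2, a kinase, by 1.14 and 1.06, Ptpn14, a phosphatase that binds YAP, by 1.07 and 0.87, and Axl, a receptor kinase, by 0.85 and 0.61. Gadd45b, a stress-response gene, fell by 2.08 ± 0.11 (SE) on Matrigel and 0.83 ± 0.09 on collagen, further on Matrigel (adjusted p = 0.00469, limma). F3 completes the 9. The other called members of the list passed by the average without being common. Ccn2, also on this list, moved in opposite directions on the coatings, as given above. It did not pass (averaged difference -0.22, adjusted p = 0.812, limma).

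The contractile genes themselves behaved differently. Of 29, 9 were lower and 0 higher by the average, where 5.57% and 4.51% of all genes tested were. In the common response (2.01% of all genes lower, 1.5% higher) 1 of them, Cnn3 (calponin 3), was found, at -0.82 on Matrigel and -0.42 on collagen. Tagln, the smooth muscle protein transgelin, was 4.17 and 4.10 on Matrigel, 8.12, 9.55 and 8.89 on collagen, and 7.76, 9.38, 7.43 and 9.26 on plastic. Its 3 collagen arrays overlapped plastic, and its averaged call (adjusted p = 0.033, limma) was lost without either Matrigel array, among others (0.0921 without replicate 1 and 0.0788 without replicate 2). Tpm2, a tropomyosin, gave -2.68 on Matrigel and -0.09 on collagen. Of 25 stellate cell and fibroblast identity genes, 2 were higher and 5 lower, with 0 and 3 in the common response: Cryab, Des (desmin, by -1.93 and -0.77) and S100a4, a calcium-binding protein of motile fibroblasts, at 10.09, 9.95, 9.94 and 10.22 on plastic and 7.76 to 8.51 on the 5 coated arrays.

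Lipid and retinoid genes moved in part. Their counts are set against 4.51% higher and 5.57% lower over all genes tested, with 1.5% and 2.01% common. Of 30 lipid droplet, fatty acid and PPAR-gamma genes, 8 were higher and 5 lower, with 4 and 0 in the common response. Plin2, which coats lipid droplets, was 9.78 and 9.72 on Matrigel, 8.99, 8.58 and 8.87 on collagen, and 7.98, 7.72, 7.97 and 7.80 on plastic, higher on Matrigel than on collagen (adjusted p = 0.0145, limma). Cpt1a, which takes fatty acids into mitochondria, rose by 1.87 and 1.24 and Cebpb, a transcription factor, by 0.33 and 0.47. Pparg, the nuclear receptor of fat storage, gave 2.06 on Matrigel and 0.12 on collagen (averaged adjusted p = 0.0516, limma). Of 20 retinoid genes, 2 were higher and 3 lower, with 1 and 2 in the common response. Cyp26b1, which breaks down retinoic acid, rose by 1.97 ± 0.31 (SE) and 1.53 ± 0.28, and Aldh1a2, which makes it, fell from 10.85, 10.88, 11.05 and 10.67 on plastic to 8.12 and 8.92 on Matrigel and 8.74, 9.05 and 8.12 on collagen. Dhrs9, a retinol dehydrogenase, fell by 1.38 and 1.29. Lrat, which stores retinol as ester, was 5.35, 4.06, 5.85 and 3.66 on plastic and did not pass (-1.23 ± 0.53 (SE), adjusted p = 0.205, limma). Of 19 cholesterol synthesis genes, 0 were higher and 9 lower, with 5 of them in the common response (median -0.38): Msmo1 (-1.27 and -0.79), Insig1 (-1.04 and -0.78), Fdft1 (-0.86 and -0.49), Sc5d (-0.59 and -0.37) and Nsdhl (-0.44 and -0.50).

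Interferon-induced genes had the lowest median of the lists, -0.80, with 15 of 33 lower and 0 higher by the average, yet 2 belonged to the common response. These were Bst2, which tethers viruses, at 9.91, 9.23, 9.72 and 9.55 on plastic, 7.41 and 8.20 on Matrigel and 8.79, 8.38 and 8.06 on collagen, and Eif2ak2, the kinase PKR (-1.14 and -0.78). Ifit1, called by the average, gave -2.65 ± 0.38 (SE) on Matrigel and -1.33 ± 0.34 on collagen. Other lists held few common genes. Of 36 cell cycle and DNA replication genes 2 were higher and 2 lower, shares near those of all genes tested (4.51% and 5.57%), and the common ones were 2 D-type cyclins: Ccnd1 rose by 1.84 and 2.06 and Ccnd3 fell by 0.50 and 0.37. Of 32 glycolysis and hypoxia genes 3 were higher and 5 lower, with Egln3, a sensor of oxygen, rising by 1.70 and 1.27 and Adm, the vasodilator peptide adrenomedullin, falling by 1.44 and 1.68. Of 26 unfolded protein and ATF4 genes 2 were higher and 1 lower, with Dnajb9, a chaperone, as the common one (0.52 and 0.25). Of 33 NRF2 and antioxidant genes 6 were higher and 2 lower and none was common, and of 26 coagulation and complement genes 0 were higher and 3 lower, with F3 and Cd55 common.

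**Figure D5:**
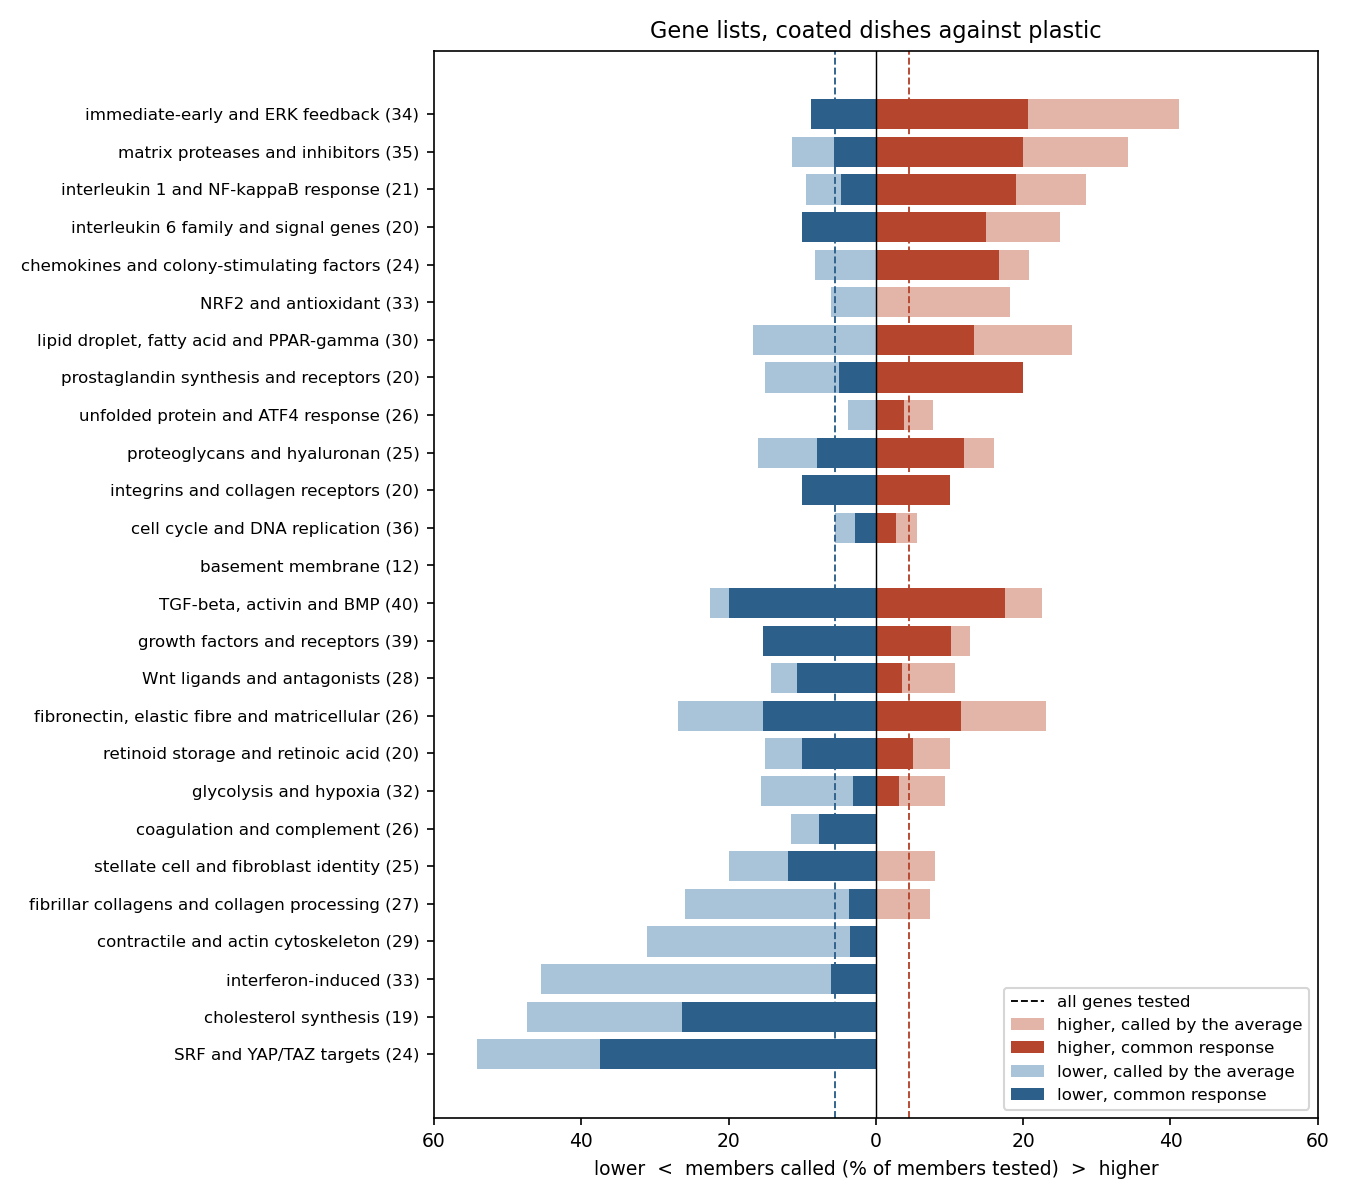
Bars give the percent of each list's tested members (number in brackets) called higher to the right and lower to the left by the averaged difference, with the common response in the dark part; dashed lines mark the 4.51% and 5.57% over all 14506 genes tested. SRF and YAP/TAZ targets (13 of 24) and cholesterol synthesis (9 of 19) lie wholly to the left, immediate-early genes (14 of 34) and proteases (12 of 35) reach furthest to the right, and the contractile, interferon and NRF2 bars are mostly pale.

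Genes of other cell types were read beside these results. In bulk RNA fewer cells of a type and less RNA per cell cannot be told apart. Over all genes tested 4.51% were higher and 5.57% lower. None of 25 macrophage markers passed by the average (0 higher, 0 lower, limma); their mean level was 7.37 to 7.72 on Matrigel, 6.12 to 7.03 on collagen and 6.12 to 7.32 on plastic, so RNA of macrophage genes was present on all surfaces. Of 19 islet markers 3 passed (mean level 5.67 to 6.71 on Matrigel, 4.75 to 5.26 on collagen, 4.56 to 5.24 on plastic): Iapp and Ins1, 2 islet hormones, and Scg3, a granule protein. Ins1, which encodes insulin, was 12.17 and 11.34 on Matrigel, 11.20, 10.79 and 10.19 on collagen, and 10.74, 9.82, 9.74 and 8.92 on plastic. It was thus read on all 9 arrays, with a difference of 1.95 ± 0.47 (SE) on Matrigel and 0.92 ± 0.42 on collagen. None of the 3 was common, and the calls of Ins1 and Iapp each held in 2 of the 9 fits without 1 array (adjusted p = 0.141 and 0.127 without Matrigel replicate 1, limma). Of 29 acinar markers 2 passed, Ctrb1 and Rbpjl, with none common; the mean level was 3.61 to 4.22 on Matrigel, 3.24 to 3.48 on collagen and 3.27 to 3.34 on plastic. Of 18 endothelial markers Tie1 passed (1.05 on Matrigel, 0.09 on collagen), and of 15 adipocyte markers Fabp4 (3.78 and -0.31). Among 19 duct and epithelial markers Spp1 was the 1 gene called, and among 11 mesothelial markers Wt1 fell by 1.06 on Matrigel and 1.02 on collagen. Of 13 Schwann and neural markers 1 was higher and 3 lower, with Pmp22 (-1.27 and -0.82) and Tubb3 (-1.24 and -1.46) common. None of 16 lymphocyte or 7 erythroid and platelet markers passed. Other calls lost without 1 array were those of Scg3 and Rbpjl (Matrigel replicate 1, adjusted p = 0.104 and 0.0975, limma), Tie1 and Fabp4 (plastic replicate 1, 0.0707 and 0.109) and Ctrb1 (plastic replicate 4, 0.0699). The part of these cells in the results was not tested.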

How the data were processed

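The deposited table holds log2 expression, made by the authors with RMA per the submitters' processing notes. Version and genome build: not given in the sources used here. Array medians lay between 4.08 and 4.18, and the values were used without further normalization. The number of arrays limits the precision. Of 29215 probe set entries, 15310 had 1 gene symbol in the array's probe table, 323 several and 13582 none; each gene was read by its brightest entry on average (804 dimmer ones left out), which gave 14506 genes.

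A mean per surface was fitted with limma 3.58.1 in R 4.3.3 (6 residual degrees of freedom, empirical Bayes without trend), and p-values were adjusted with the Benjamini-Hochberg method over all genes within each contrast: the mean of both coatings minus plastic, each coating minus plastic, and Matrigel minus collagen. The title letters were checked as a pairing: the deviations of same-letter arrays from their surface means correlated by 0.20, 0.23 and 0.27 (collagen with plastic) and by -0.13 and 0.41 (Matrigel with plastic), so the letters were not treated as pairs. Simulated data had independent normal noise on each array, and the shifted genes were drawn from those above the 40th percentile of level. Of 50 genes shifted by 1 on both coatings 86% entered the common response, as did 94% of 50 shifted by 2. Of 50 genes shifted by 2 on Matrigel alone 88% were called by the average and 0% were common. Of 50 genes shifted by 2 in opposite directions 0% were called by the average. Among 14306 unchanged genes 1 was common. The simulation shifted 200 genes, fewer than the 1462 that the average called in the data, and gave same-letter arrays no shared deviation. Its count for unchanged genes therefore does not give the share of false calls among the 510 common genes.

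The named genes were the 15 per direction with the largest smaller difference among common genes with a name and a level above the 40th percentile, the called members of each list that had the lowest p (4 at most), and 15 genes of stellate cells whatever they showed; the text prints a part. It also prints genes outside this rule (53), picked with their values known. The comparison, the 36 gene lists (981 entries, 876 tested) and the rules were chosen with earlier results of these data known. Promoters were matched by gene identifier to RefSeq's table on GRCr8, which held 11 of the 15 leading genes in each direction.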

Additional observations from a re-analysis of the deposited data

Results flagged for a closer look

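Of 169 genes named in the text, 10 had 1 plastic array far from the other 3, at a level that chance reaches in about 1 group in 20. Among 169 genes a number of this order is reached by chance. Plastic replicate 2 was the low one for Spp1 (8.37, others 9.61 to 9.69), Wt1 (8.06, others 8.37 to 8.40) and Il11 (4.72, others 4.93 to 4.96), and the high one for Tubb3 (8.02, others 7.05 to 7.12) and Cntn2 (7.12, others 6.74 to 6.80). Plastic replicate 3 was high for Ogn (7.92, others 7.17 to 7.23), Gfap (2.74, others 2.45 to 2.50) and Duox2 (3.65, others 3.26 to 3.32), and low for Nsdhl (7.35, others 7.64 to 7.65). Plastic replicate 4 was high for Spry4 (6.55, others 6.05 to 6.08).

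The direct test of Matrigel minus collagen (limma, adjusted over all genes) found a different size on the coatings for named genes of the common response. The value was lower on Matrigel for F3 (-2.19), Avpr1a (-1.57), Jun (-1.56), Klf4 (-1.32), Il11 (-1.29), Gadd45b (-1.25), Bmp6 (-1.19), Des (-1.16), Mfap5 (-1.09), Lif (-1.09), Nfkbiz (-0.89), Ltbp1 (-0.56), Pmp22 (-0.45) and Cnn3 (-0.40), and higher on Matrigel for Plin2 (0.93). Named genes outside the common response differed too: Tagln (-4.72), Tpm2 (-2.59) and Fos (-2.32) were lower on Matrigel, and Fabp4 (4.09), Ctrb1 (3.52), Pparg (1.94), Scg3 (1.70) and Tie1 (0.96) were higher.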

How the results depend on the processing

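The counts of 654 genes higher and 808 lower, and of 218 and 292 common genes, stayed within 1.5 times under re-centring (716 and 716; 232 and 267), repeated quantile normalization, a filter on dim genes, all entries, trend and robust moderation and array weights. With the 5 coated arrays as 1 group the averaged counts were 386 and 494. Leaving out all arrays of letter A gave 97 and 128 (common 9 and 23), of P 326 and 420 (92 and 136), and of Z 375 and 407 (125 and 131); these fits have fewer arrays and, without A or S, 1 Matrigel array whose spread is taken from the other surfaces. A minimum of 2-fold gave 149 and 196 (106 and 141). Leaving out 1 array gave 390 to 656 higher, 474 to 784 lower, and 115 to 187 and 184 to 289 common; the counts moved by over 1.5 times without plastic replicate 1 (390 and 474; common lower 184), Matrigel replicate 1 (508 lower; common 115 and 192) and plastic replicate 4 (527 lower). With the title letter as a fixed replicate block the counts were 839 and 1019 (common 220 and 296), and as a random block 814 and 1012 (267 and 342). The fixed replicate block ended no call of a named gene, and Lrat (adjusted p = 0.0152), Mmp12 (0.0182), Mmp2 (0.0456), Timp1 (0.0349) and Pparg (0.00491) passed under it (limma). Directions of named genes held in all alternatives except for 2 genes that were not called, whose values without 1 array ran from -0.54 to 0.074 for Ccn2 (positive without plastic replicate 4) and from -0.018 to 0.10 for Il1r1 (negative without plastic replicate 3). All 30 leading genes passed in each of the 9 fits without 1 array.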

Other observations

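Genes of vascular tone form a group that the lists above did not hold. It was drawn up after the values were seen, as 43 peptides, receptors and enzymes of which 40 were tested: 2 were higher and 10 lower by the average (4.51% and 5.57% of all genes tested), with 1 and 8 in the common response, and 19 lay under the 40th percentile of gene levels on all surfaces. Agtr1a, the angiotensin II receptor, was 10.17, 9.57, 10.31 and 9.74 on plastic, 7.28 and 8.08 on Matrigel, and 8.01, 8.25 and 6.83 on collagen. Avpr1a, the vasopressin receptor, was 8.46, 8.58, 8.48 and 8.83 on plastic, 7.16, 6.99 and 7.28 on collagen, and 5.15 and 5.98 on Matrigel, so it fell on both coatings and further on Matrigel. Npr3, the clearance receptor of natriuretic peptides, was 9.73, 9.67, 9.87 and 9.62 on plastic, 6.35 and 7.04 on Matrigel, and 7.31, 8.17 and 5.58 on collagen.

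Ramp3, which shapes the adrenomedullin receptor, fell by 2.34 ± 0.22 (SE) on Matrigel and 2.36 ± 0.19 on collagen, with a Matrigel minus collagen interval of -0.51 to 0.55. Ddah1, which clears inhibitors of nitric oxide synthesis, fell by 3.37 and 2.13, and Gucy1b1, a subunit of the nitric oxide receptor, by 2.22 and 1.47. With Edn1 and Adm, given above, ligands and receptors of constriction and of relaxation were both lower on coated dishes. The common member that rose was Adcyap1r1, the receptor of the peptide PACAP, by 1.27 and 1.43, from plastic values of 4.32, 3.71, 3.78 and 4.35.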
